A study of Mus musculus with 6 samples.

Results

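Genes of the translation initiation and elongation factors were compared between B-1a and B-1b cells, the subsets of B-1 cells sorted as CD5+ (B-1a) and CD5- (B-1b) of the mouse peritoneal cavity (PerC). The members were all gene names that start with Eif or Eef followed by a digit, pseudogenes aside, and they came to 61 of the 7834 names in the deposited table. By factor they were 5 genes of eIF1, 14 of eIF2, 14 of eIF3, 13 of eIF4, 3 of eIF5, 1 of eIF6, 8 of eEF1 and 3 of eEF2. Both groups were sorted from untreated wild-type (WT) C57BL/6 mice, the study used male mice only, and no age is stated in the sources used. The labels list 3 samples per group, and nothing in them says whether the samples came from separate mice, so that p-values measure the spread between these libraries. The deposited table is named as raw read counts and states no unit, but its values are fractional, and they were read as FPKM (fragments scaled to transcript length and to library size), summed over the rows of a gene.

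Translation starts when eIF2, loaded with GTP and the initiator tRNA, joins the small ribosomal subunit together with eIF1, eIF1A, eIF3 and eIF5. The eIF4 proteins recruit the capped mRNA, eIF5B joins the large subunit, and eEF1A and eEF2 then drive elongation. Phosphorylation of the alpha subunit of eIF2 by stress-sensing kinases blocks its nucleotide exchange factor eIF2B and lowers initiation. A B cell that becomes an antibody-secreting cell has to make large amounts of protein.

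The replicates numbered 3 added no libraries for these genes. In all 128 rows of the 61 members, the values of replicate 3 of B-1b equalled those of replicate 1, and replicate 3 of B-1a was the mean of B-1a replicates 1 and 2 (relative tolerance 1e-06). They were therefore not used, and each group had 2 libraries. Summed FPKM over all genes was between 324330 and 366992 per library, and the sequencing depth behind it is unknown. The defining marker of the sort did not separate the groups, since Cd5 was at 0.446 and 0.757 FPKM in B-1a and at 0.895 and 0.737 FPKM in B-1b. Ighm, the IgM heavy chain constant gene, was at 32.5 and 38.7 FPKM in B-1a and at 2585 and 2781 FPKM in B-1b. These sums cover the listed rows only, and the cause of the Ighm difference was not tested. Of the other B-1 cell markers, Spn was at 2.37 and 2.64 FPKM in B-1a and at 4.09 and 1.17 FPKM in B-1b. Bhlhe41 was at 0.775 and 1.23 FPKM in B-1a and at 4.87 and 2.68 FPKM in B-1b, and Zbtb32 was not listed. All 6 B cell markers examined were present in both groups, with a summed level of 3532 to 4075 FPKM. Of 9 macrophage markers, 8 were present as well, and 7 of the 8 had a positive log2 fold change toward B-1b. Their summed level was 4530 and 3426 FPKM in B-1a, then 4213 and 7240 FPKM in B-1b, most of it Lyz2, the lysozyme gene of myeloid cells. T cell markers summed to 8.29 to 20.3 FPKM and plasma cell markers to 269 to 409 FPKM. Most of the plasma cell sum was Mzb1 (137 to 281 FPKM) and Xbp1 (75.5 to 124 FPKM), while Sdc1 was at 0.597 to 0.934 FPKM and Prdm1 at 1.46 to 3.34 FPKM. All 5 mast cell markers present leaned toward B-1b, with sums of 124 and 123 FPKM in B-1a, then 223 and 129 FPKM in B-1b. Of 3 B-2 cell markers, Ighd was lower in B-1b (436 and 329.5 FPKM in B-1a, then 214 and 241 FPKM), while Fcer2a was higher there (9.71 and 11.5 FPKM, then 17.6 and 13.1 FPKM) and Cr2 was listed at 0 in a library of each group. The part of other cells in the values below was not tested, and in bulk samples fewer cells of a type and less RNA per cell cannot be told apart.

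Together the 61 members held 1.36% and 1.44% of the summed FPKM in B-1a and at 1.29% and 1.41% in B-1b, so the groups overlapped in their total share. Of the members, 59 passed the filter (1 FPKM or more in 2 or more libraries) and were tested with limma on log2(FPKM + 1), B-1b over B-1a, over all 7557 genes that passed. On this scale the fold change of genes with low values is understated. Limma gave 0 of the 59 a false discovery rate (FDR) below 0.05, against 0.198% of all genes tested (15 genes), and an ordinary linear model per gene also gave 0. At an unadjusted p under 0.05 limma had 3 members (Eif3g, Eif4a3 and Eef1akmt1), against 9.66% of all genes. The log2 fold change was above 0 in 36 members and below 0 in 23, a share of 61.0% beside 56.2% of all genes, with a median of 0.08 beside 0.05 over all genes. Without B-1b replicate 2 the split was 29 of 59 and the median -0.0090, and without B-1a replicate 1 it was 31 of 59 and 0.0065. The libraries of the groups did not overlap in 18 members (30.5%), 11 higher and 7 lower in B-1b, while 43.1% of all genes tested had libraries that did not overlap. A log2 fold change smaller than 0.5 in either direction was seen in 47 of the 59 members, and in 72.4% of all genes tested. The plot of log2 fold changes by factor shows each member.

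**Figure D1:**
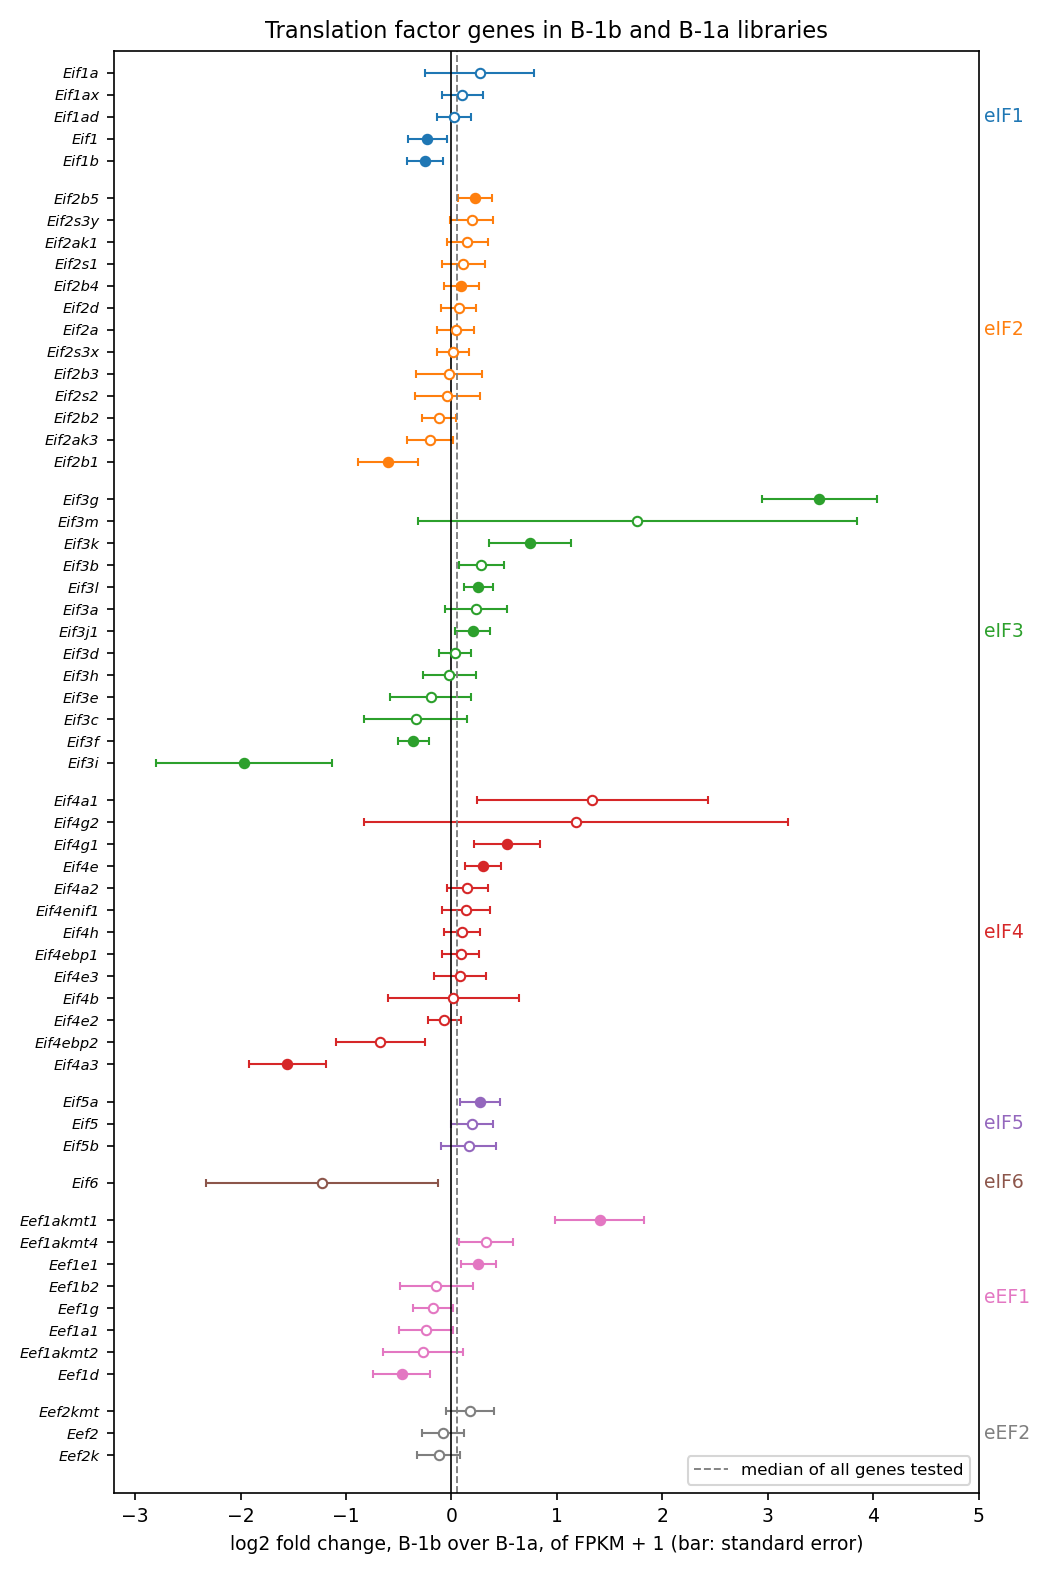
Log2 fold change of FPKM + 1, B-1b over B-1a, for the 59 tested translation factor genes, grouped by factor, with bars for the standard error from limma (n = 2 libraries per group). Filled points mark genes whose B-1a and B-1b libraries do not overlap, the dashed line is the median of all genes tested (0.05), and 8 genes lie at least 1 from zero.

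A log2 fold change of at least 1 in either direction was seen in 8 members. In 4 of them the libraries of the groups did not overlap (Eif3g, Eef1akmt1, Eif4a3 and Eif3i). These 4 of the 59 tested members stand beside 586 of all 7557 genes tested with both traits (7.75%). In the other 4 (Eif3m, Eif4a1, Eif4g2 and Eif6) the groups overlapped, because libraries of the same group lay far apart.

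Eif3g, which encodes an RNA-binding subunit of eIF3, showed the largest difference of all members. It was at 2.41 and 3.40 FPKM in B-1a and at 70.6 and 25.4 FPKM in B-1b. Both B-1b libraries lay well above both B-1a libraries, although they also differed from each other by 2.78 times. On the log2 scale the difference was 3.49 ± 0.54 SE, with an adjusted p of 0.223 by limma. It came to 2.77 at the lowest and 4.21 at the highest when any library was dropped. Eif3g is on chromosome 9 of GRCm38 (20894349 to 20898623, minus strand), has 1 row in the table for 4 annotated transcripts, and overlaps no other annotated gene.

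Eef1akmt1 encodes a methyltransferase that modifies a lysine of eEF1A. Its levels were 7.22 and 16.1 FPKM in B-1a and at 26.6 and 34.7 FPKM in B-1b, so that the groups were separate. Row 1 was at 7.22 and 8.28 FPKM in B-1a. Row 2 was at 7.79 FPKM in B-1a replicate 2 and at 0 in the other libraries. The difference between groups in the summed level was 1.41 ± 0.42 SE on the log2 scale (adjusted p = 0.430 by limma). It came to 0.88 without B-1a replicate 1 and to 1.93 without B-1a replicate 2. The other methyltransferase genes of this kind overlapped between groups, with Eef1akmt2 at 6.05 and 2.97 FPKM in B-1a and at 3.65 and 3.15 FPKM in B-1b. Eef1akmt4 was at 7.68 and 10.3 FPKM in B-1a and at 9.81 and 13.2 FPKM in B-1b.

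Eif4a3 had the largest difference toward B-1a with an unadjusted p under 0.05. It is named as an eIF4A helicase but is known as a core component of the exon junction complex, which marks spliced mRNA. It was at 75.9 and 56.4 FPKM in B-1a and at 29.6 and 15.7 FPKM in B-1b. Every B-1a library was above every B-1b library, and both rows of the gene showed that order. The log2 difference was -1.56 ± 0.37 SE, with an adjusted p of 0.342 by limma. Dropping replicate 1 of B-1b gave -1.99, and dropping replicate 2 gave -1.12. Eif4a3 is on chromosome 11 of GRCm38 (119288363 to 119300089, minus strand).

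Eif3i, the WD-repeat subunit of eIF3, was also lower in B-1b, at 135 and 39.8 FPKM in B-1a and at 32.2 and 9.99 FPKM in B-1b. The groups did not overlap, but the libraries differed more than 3 times within each group and the lower B-1a value was close to the higher B-1b value. The log2 difference of -1.96 had a standard error of 0.84 (adjusted p = 0.569 by limma). It was -1.09 without B-1a replicate 1 and -2.84 without B-1a replicate 2. Dropping replicate 1 of B-1b gave -2.76, and dropping replicate 2 gave -1.17.

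**Figure D2:**
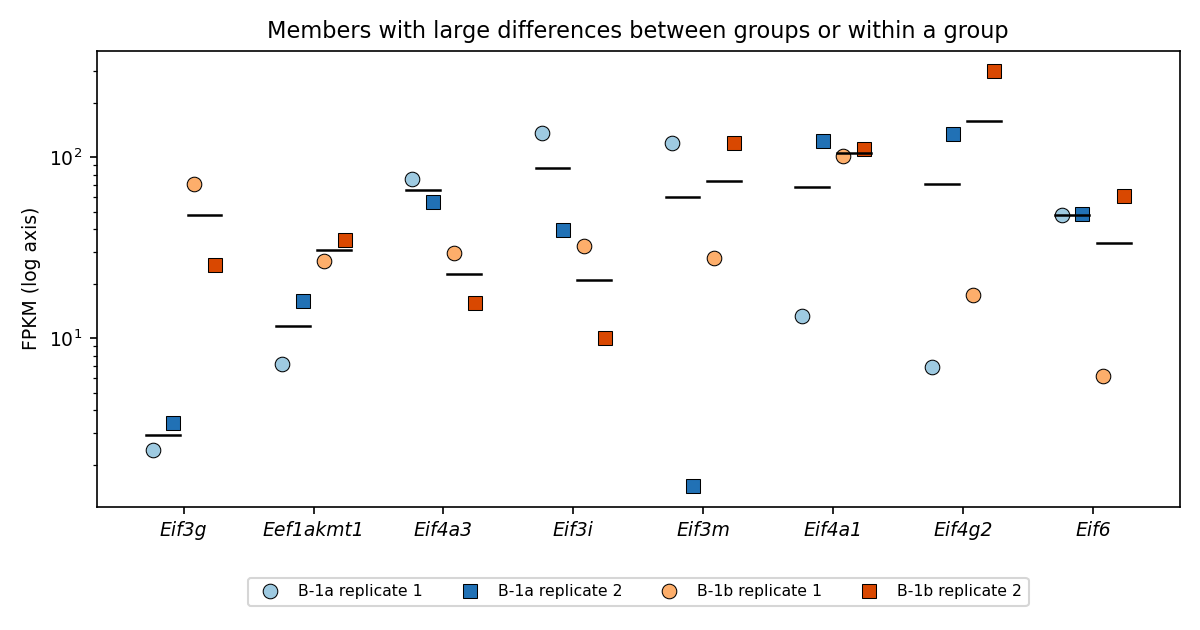
FPKM (log axis) of the 8 members with a log2 fold change of at least 1 in either direction, in the 4 libraries, with horizontal lines for the group means. Eif3g, Eef1akmt1, Eif4a3 and Eif3i have groups that do not overlap, while in each of Eif3m, Eif4a1, Eif4g2 and Eif6 at least 1 group has libraries far apart.

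The other 4 genes with large fold changes showed how far libraries of the same group could differ. Eif3m, a PCI-domain subunit of eIF3, was at 119 and 1.53 FPKM in B-1a and at 27.8 and 120 FPKM in B-1b. A low value in B-1a replicate 2 alone gave it a log2 fold change of 1.76 with a standard error of 2.08, and without that library it was -1.03. Eif4a1, the main helicase of the cap-binding complex, was at 13.3 and 123 FPKM in B-1a and at 101 and 110 FPKM in B-1b. Its low library was B-1a replicate 1, and the log2 fold change of 1.34 turned to -0.22 without it. Eif4g2, a homologue of eIF4G that does not bind the cap-binding protein, ranged from 6.89 to 134 FPKM within B-1a and from 17.3 to 297 FPKM within B-1b. Its log2 fold change of 1.18 became -0.87 without B-1a replicate 1 and -0.83 without B-1b replicate 2. Eif6, which keeps the large ribosomal subunit from joining too early, was at 47.9 and 48.5 FPKM in B-1a and at 6.14 and 60.9 FPKM in B-1b. Without B-1b replicate 1 its log2 fold change went from -1.23 to 0.33. In all, 11 of the 59 members had a range of at least 2-fold within a group (18.6%, beside 23.7% of all genes), and the median pooled standard deviation of their log2 values (0.21) was about as large as the median absolute log2 fold change (0.20). The difference between groups exceeded the pooled standard deviation in 24 of the 59 members (40.7%) and in 51.8% of all genes tested.

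The tested genes of eIF2 itself, of its exchange factor eIF2B and of its kinases had log2 fold changes between -0.21 and 0.22 except Eif2b1, and 0 passed the test. The alpha subunit gene Eif2s1, whose protein carries the regulatory phosphorylation site, was at 42.0 and 46.0 FPKM in B-1a and at 41.0 and 55.3 FPKM in B-1b (log2 difference 0.11 ± 0.21 SE, adjusted p = 0.879 by limma). The beta subunit gene Eif2s2 was at 13.98 and 20.5 FPKM in B-1a and at 20.4 and 13.3 FPKM in B-1b. Neither gene separated the groups.

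The gamma subunit, which binds GTP and the tRNA, is encoded by a gene on the X and a gene on the Y chromosome in the mouse. Eif2s3x was at 21.04 and 21.02 FPKM in B-1a and at 20.3 and 22.2 FPKM in B-1b. Eif2s3y was at 14.2 and 18.7 FPKM in B-1a and at 19.8 and 17.8 FPKM in B-1b. Their sum was 35.3 and 39.7 FPKM in B-1a, then 40.1 and 39.9 FPKM in B-1b. Per length, the X copy was above the Y copy in each of the 4 libraries.

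Of the 5 eIF2B subunit genes, Eif2b1 had the lowest log2 fold change. It was at 14.5 and 23.9 FPKM in B-1a and at 11.5 and 12.4 FPKM in B-1b, a log2 difference of -0.60 ± 0.29 SE (adjusted p = 0.603 by limma) that was -0.94 without B-1a replicate 1 and -0.26 without B-1a replicate 2. Its B-1a libraries were both above its B-1b libraries, by little in the case of replicate 1. Eif2b5, the catalytic subunit, was at 25.3 and 27.5 FPKM in B-1a and at 29.2 and 32.9 FPKM in B-1b, separate in the opposite direction (log2 fold change 0.22 ± 0.16 SE, adjusted p = 0.703 by limma). Eif2b4 was separate by a small margin, at 11.9 and 11.4 FPKM in B-1a and at 12.1 and 12.9 FPKM in B-1b. Eif2b2 was at 29.4 and 31.3 FPKM in B-1a and at 26.1 and 29.9 FPKM in B-1b. Eif2b3, the least abundant of the 5, stayed between 4.95 and 7.63 FPKM in all 4 libraries. The latter pair overlapped between groups.

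Among the eIF2 alpha kinases, Eif2ak3 (PERK), the sensor of unfolded protein in the endoplasmic reticulum, was at 41.5 and 34.7 FPKM in B-1a and at 38.1 and 28.3 FPKM in B-1b. Eif2ak1, the heme-regulated kinase, was at 35.7 and 33.9 FPKM in B-1a and at 44.2 and 33.8 FPKM in B-1b. These kinases overlapped between the groups, with log2 fold changes of -0.21 and 0.15 in the same order. Eif2ak4 (GCN2), the sensor of uncharged tRNA, was at 0.123, 0.273 and 0.277 FPKM in B-1a replicates 1 and 2 and in B-1b replicate 1, and at 4.14 FPKM in B-1b replicate 2. It did not pass the filter, and its higher level rested on that library. Eif2a and Eif2d, which encode factors that can deliver initiator tRNA without eIF2, stayed between 11.3 and 12.4 FPKM and between 20.8 and 24.2 FPKM in the 4 libraries. The 13 tested genes with an eIF2 name had a median log2 fold change of 0.04, with 8 above and 5 below 0.

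**Figure D3:**
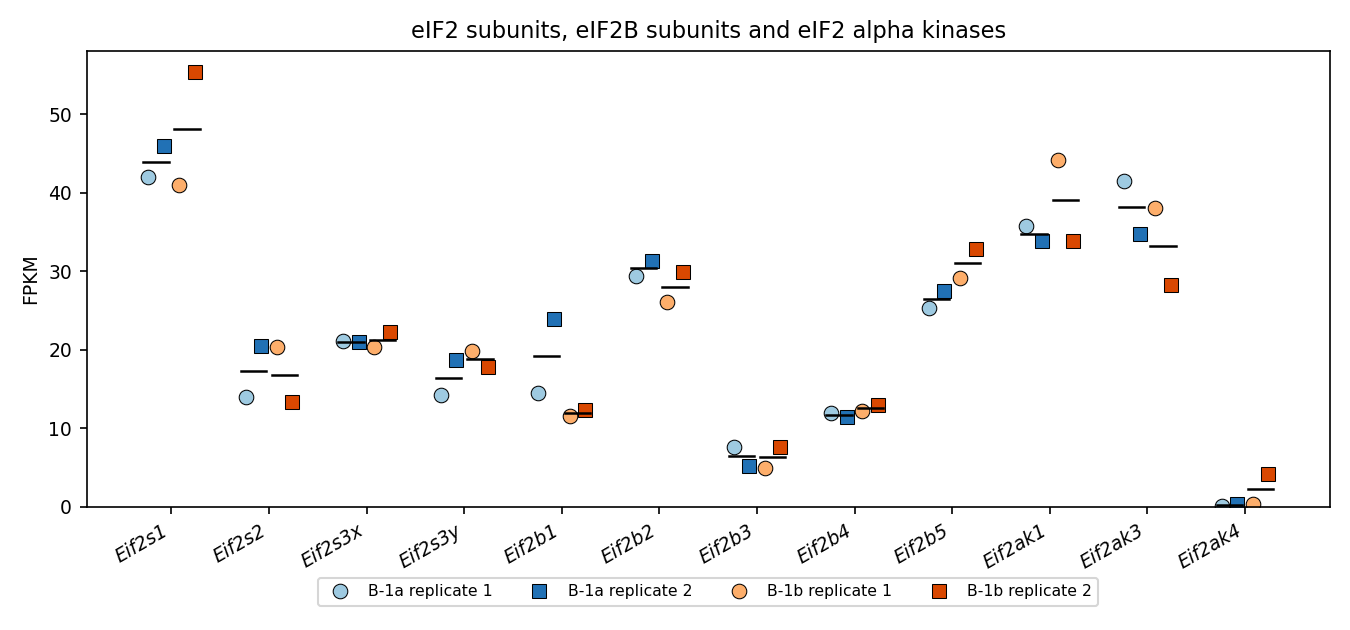
FPKM (linear axis from 0) of the eIF2 subunits, the eIF2B subunits and the eIF2 alpha kinases in 2 libraries each of B-1a and B-1b, with horizontal lines for the group means. The libraries of the groups mix in all but Eif2b1 (lower in B-1b), Eif2b4, Eif2b5 and the low-valued Eif2ak4 (higher in B-1b).

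The eIF3 complex is the scaffold that bridges the small subunit and the mRNA, and 9 of its 13 tested genes had a log2 fold change below 0.5 in size, the others being Eif3g, Eif3i, Eif3m and Eif3k. Eif3f was at 78.2 and 83.4 FPKM in B-1a and at 60.3 and 65.1 FPKM in B-1b, with a log2 difference of -0.36 ± 0.14 SE (adjusted p = 0.554 by limma). Eif3l, at 63.9 and 67.0 FPKM in B-1a and at 75.8 and 80.8 FPKM in B-1b, was separate in the opposite direction (log2 fold change 0.26 ± 0.14 SE, adjusted p = 0.643 by limma). Both of these genes had replicates within 1.1 times of each other.

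Eif3k was at 21.1 and 12.97 FPKM in B-1a and at 21.3 and 37.8 FPKM in B-1b (log2 difference 0.74 ± 0.39 SE, from 0.34 to 1.14 when any library was dropped), with B-1a replicate 1 and B-1b replicate 1 nearly equal. Eif3e, which had the highest mean of the eIF3 genes over the 4 libraries but not within B-1b, was at 71.8 and 115 FPKM in B-1a and at 60.1 and 104 FPKM in B-1b. Eif3c, a core subunit, was at 46.2 and 52.8 FPKM in B-1a and at 62.0 and 24.1 FPKM in B-1b. These examples show spreads within B-1b as large as the difference between groups. The genes of the core subunits Eif3a and Eif3b overlapped between groups too, with log2 fold changes of 0.23 and 0.28. These were -0.12 and 0.10 without B-1b replicate 1, and 0.59 and 0.46 without B-1b replicate 2. Eif3d, the subunit with a cap-binding activity of its own, was at 53.0 and 55.2 FPKM in B-1a and at 52.4 and 58.6 FPKM in B-1b. Eif3h stayed at 4.61 to 6.26 FPKM and Eif3j1 at 12.0 to 15.0 FPKM in the 4 libraries. Eif3j2, a near copy of Eif3j1 whose reads could have been split with it, was at 6.14 and 0.627 FPKM in B-1a and at 0.269 and 0.962 FPKM in B-1b and did not pass the filter. The 13 tested eIF3 genes had a median log2 fold change of 0.20 (0.11 without B-1b replicate 1), with 8 above and 5 below 0. Libraries did not overlap in 6 of these genes (46.2%), a share near the 43.1% of all genes.

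Of the cap-binding complex eIF4F, Eif4e, which binds the cap, was at 19.7 and 23.6 FPKM in B-1a and at 26.9 and 26.6 FPKM in B-1b (log2 difference 0.30 ± 0.17 SE, adjusted p = 0.653 by limma). Eif4g1, the scaffold, was at 11.7 and 14.9 FPKM in B-1a and at 25.2 and 15.0 FPKM in B-1b (log2 difference 0.53 ± 0.31 SE, adjusted p = 0.665 by limma), which became 0.17 when B-1b replicate 1 was dropped and 0.88 when replicate 2 was. Both genes had higher values in the B-1b libraries without overlap, but for Eif4g1 the upper B-1a and the lower B-1b library nearly met. Eif4a2, the second helicase gene, was at 29.5 and 28.6 FPKM in B-1a and at 28.2 and 37.1 FPKM in B-1b. Eif4h, a stimulator of the helicase, stayed between 69.5 and 85.4 FPKM. Eif4b, its other stimulator, was at 16.3 and 48.2 FPKM in B-1a and at 20.9 and 39.0 FPKM in B-1b, where the libraries of a group differed far more than the groups.

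Eif4ebp1 and Eif4ebp2 encode the 4E-BPs, which hold Eif4e in an inactive form until mTORC1 phosphorylates them. Eif4ebp1 was at 17.8 and 20.3 FPKM in B-1a and at 18.9 and 21.7 FPKM in B-1b. Eif4ebp2 was at 4.26 and 7.53 FPKM in B-1a and at 2.25 and 4.42 FPKM in B-1b (log2 difference -0.67 ± 0.42 SE, adjusted p = 0.678 by limma). The latter difference came to -0.30 when B-1b replicate 1 was dropped and to -1.04 when replicate 2 was. For B-1a the same gave -1.02 and -0.33. Neither separated the groups. The cap-binding homologues Eif4e2 and Eif4e3 had log2 fold changes of -0.07 and 0.08, and Eif4enif1, which encodes the nuclear importer of eIF4E, had 0.14.

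The factors that select the start codon, join the subunits and extend the first peptide bonds had small differences. Eif1 was at 384 and 410 FPKM in B-1a and at 305 and 377 FPKM in B-1b, and Eif1b, its paralogue, at 54.3 and 53.0 FPKM in B-1a and at 40.5 and 49.7 FPKM in B-1b. Both were lower in both B-1b libraries (log2 fold changes -0.23 and -0.25, adjusted p = 0.720 and 0.694 from limma). Eif1a, Eif1ax and Eif1ad had log2 fold changes of 0.27, 0.10 and 0.02, which turned to -0.27, -0.035 and -0.031 without B-1b replicate 2.

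Eif5a, whose protein carries the modified lysine hypusine and helps ribosomes through difficult peptide bonds, was at 311 and 390 FPKM in B-1a and at 414 and 427 FPKM in B-1b (log2 difference 0.27 ± 0.19 SE, adjusted p = 0.703 by limma). Its libraries did not overlap. Eif5, the GTPase activator of eIF2, and Eif5b had log2 fold changes of 0.19 and 0.16 and overlapped between groups. Eif5 turned to -0.014 without B-1a replicate 1, and Eif5b to -0.026 without B-1b replicate 1.

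All 4 genes of the eEF1 complex, which loads aminoacyl-tRNA onto the ribosome, had log2 fold changes below 0, and 0 of them passed the FDR. Eef1a1, the most abundant member of all, was at 1692 and 1553 FPKM in B-1a and at 1165 and 1624 FPKM in B-1b. The low library was B-1b replicate 1, and without it the log2 fold change went from -0.24 to 0.0023. The median over the 8 eEF1 genes went from -0.16 to 0.15 without that library, which was also the lowest for the 3 genes of the exchange factor. Eef1g was at 250.1 and 276 FPKM in B-1a and at 208 and 260 FPKM in B-1b. Eef1b2 was at 79.8 and 97.2 FPKM in B-1a and at 58.8 and 108 FPKM in B-1b, and its log2 fold change of -0.14 turned to 0.29 without B-1b replicate 1. Eef1d was at 35.8 and 41.8 FPKM in B-1a and at 22.1 and 34.4 FPKM in B-1b, without overlap (log2 fold change -0.47 ± 0.27 SE, adjusted p = 0.655 by limma). The difference for Eef1d was -0.16 when B-1b replicate 1 was dropped and -0.78 when replicate 2 was. Of 83 cytosolic ribosomal protein genes, 73 had a log2 fold change below 0, with a median of -0.44 (-0.19 if B-1b replicate 1 is dropped, -0.73 if replicate 2 is), and limma gave 0 an FDR below 0.05. Eef1e1, which works in the aminoacyl-tRNA synthetase complex in spite of its name, was at 22.4 and 21.8 FPKM in B-1a and at 24.4 and 28.9 FPKM in B-1b.

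Eef2, the translocase, was at 370.0 and 427 FPKM in B-1a and at 419 and 339 FPKM in B-1b, and the groups overlapped. Its inhibitory kinase gene Eef2k stayed between 6.19 and 7.69 FPKM, and Eef2kmt, the gene of its methyltransferase, between 7.85 and 11.2 FPKM. The log2 fold changes of these genes were -0.08, -0.12 and 0.18.

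Many mRNAs of elongation factors and ribosomal proteins begin with a C followed by a run of pyrimidines, the 5' terminal oligopyrimidine tract, through which mTORC1 controls their translation. The RefSeq start windows of GRCm38.p6 were therefore searched, on the strand of the gene and from 30 bases before to 30 bases after the annotated start, for a C followed by at least 7 C or T bases. Such a run was present in 13 of the 47 tested members with a window (27.7%), in 21.4% of all tested genes with a window, in 32 of 61 ribosomal protein genes (52.5%) and in 18.2% of all 32851 windows. A run could lie anywhere in this window and need not be at the start itself. In the 6 members below it began between positions -15 (Eif2b5) and 4 (Eif3l) relative to the annotated start. The runs of these 6 members, from several factors, are shown in capitals with 5 bases on either side, 5' to 3'.
Eef1a1 (chr9:78481715-78481734, minus strand): ctccgCCCTCTTCCCgaggg
Eif3f (chr7:108934406-108934430, plus strand): ctaggCTCTCTCTCTTTCTCggcaa
Eif3l (chr15:79075222-79075240, plus strand): ttccgCTCTCTCCCacggg
Eif2b5 (chr16:20498797-20498825, plus strand): gcattCCTTCCTCTTTCTCTCCCTgcaac
Eif2s3x (chrX:94212636-94212657, minus strand): attttCCTTTTCTCTCCgagca
Eif2s3y (chrY:1010591-1010612, plus strand): agccaCTTCCTTCTTTCgtgag
Eif3f was lower and Eif3l and Eif2b5 were higher in both B-1b libraries, so genes with such a run lay on either side. Of the 13 members with a run, 5 had a log2 fold change below 0 (median 0.14), and of the 34 without it, 11 did (median 0.10). A match is a description of the window and not a mapped start of these cells' mRNAs.

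The table holds several rows for 30 of the 61 members, which were read as transcripts, although it gives no transcript names. In 21 of the 30 (70.0%) the same row was the largest in all 4 libraries, beside 55.9% of 3355 names with several rows. In 0 of the 30 did both B-1a libraries share a largest row that differed from the one shared by both B-1b libraries, beside 4.77% of those names. In 2 of the 30 (6.67%, beside 3.85% of those names) the largest row of both replicates 1 differed from that of both replicates 2. Row 6 of Eif5a was at 236 and 7.74 FPKM in B-1a and at 214 and 1.47 FPKM in B-1b. Row 8 of Eif5a was at 0.0129 and 270.5 FPKM in B-1a and at 0.436 and 271 FPKM in B-1b. So each group had a library with row 6 and a library with row 8 as the largest row, and the summed level was more even than either. Row 1 of Eif3e was at 12.1 and 97.0 FPKM in B-1a and at 8.34 and 64.8 FPKM in B-1b, with the same alternation.

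For Eif4g2, row 2 was listed at 0 in both B-1a libraries and B-1b replicate 1 and at 266 FPKM in B-1b replicate 2, which made up most of that library's sum. For Eif4a1, the main row was at 6.35 and 111 FPKM in B-1a and at 46.2 and 85.4 FPKM in B-1b. Its 3 other rows behaved differently, and each was higher in both B-1b libraries than in either B-1a library. Row 3 of Eif4a1 held that order by little, at 1.29 and 0.425 FPKM in B-1a and at 14.8 and 1.32 FPKM in B-1b. Row 4 of Eif4a1 was at 3.30 and 4.24 FPKM in B-1a and at 21.9 and 11.5 FPKM in B-1b. With rows kept apart, limma gave 0 of 110 member rows an FDR below 0.05, against 0.0494% of all rows tested, and 11 an unadjusted p under 0.05, a share close to the 9.88% of all rows.

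**Figure D4:**
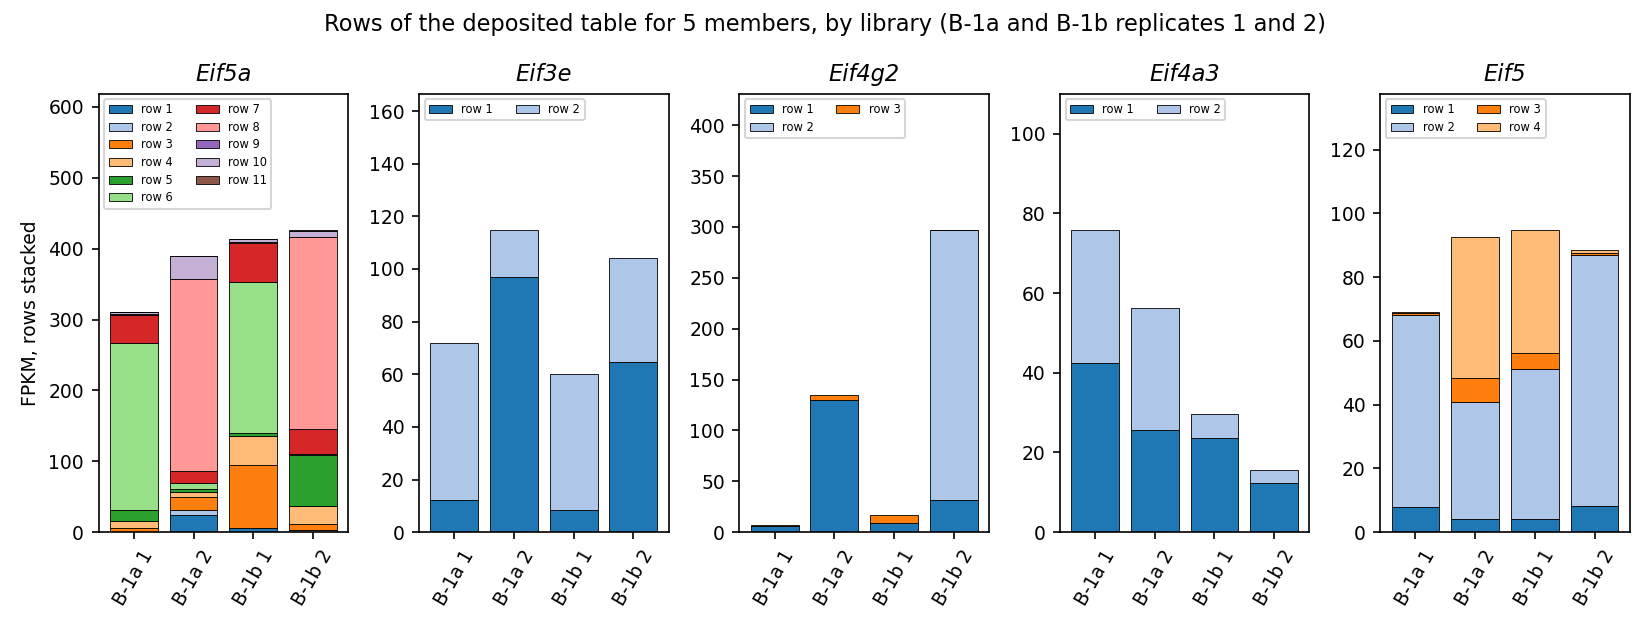
FPKM of the separate rows of Eif5a, Eif3e, Eif4g2, Eif4a3 and Eif5, stacked to the gene's sum, in B-1a replicates 1 and 2 and B-1b replicates 1 and 2 (linear axes from 0, each panel with its own scale). In Eif5a row 6 fills most of B-1a replicate 1 and B-1b replicate 1 and row 8 most of the other libraries, and both rows of Eif4a3 are lower in B-1b.

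Other genes of the pathway, from lists written with earlier results of these data known, were read from the same fit, and 0 of them passed the FDR. Of 21 tested genes of the cytosolic aminoacyl-tRNA synthetases, 16 had a log2 fold change above 0 (median 0.21). Of 19 genes of the mTORC1 pathway, 8 did (median -0.07, which turned to 0.11 without B-1a replicate 1 and to 0.19 with rows kept apart). Of 6 genes of the integrated stress response, 4 did (median 0.18, but 0.063 without B-1b replicate 1, 0.072 without replicate 2 of B-1b, 0.11 without B-1a replicate 1 and -0.02 with a filter of at least 10 FPKM). Atf4, the transcription factor translated when eIF2 is phosphorylated, was at 32.6 and 33.5 FPKM in B-1a and at 27.4 and 32.6 FPKM in B-1b. Ppp1r15b, which directs the phosphatase to eIF2, was at 23.6 FPKM in both B-1a libraries and at 24.8 and 25.8 FPKM in B-1b. Neither gene passed the test.

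Among 9 tested genes of termination, recycling and rescue, 6 were above 0 (median 0.05, between 0.014 without B-1a replicate 2 and 0.23 without B-1b replicate 2). Gspt1, which encodes the release factor eRF3, was at 3.27 and 20.1 FPKM in B-1a and at 31.5 and 33.3 FPKM in B-1b. Its groups were separate, with most of the difference in B-1a replicate 1. Of 4 tested genes for poly(A)-binding proteins and partners of eIF4A, 1 was above 0 (median -0.41, but -0.14 without B-1a replicate 2 and -0.063 without B-1b replicate 2), and Pabpc1 was at 1.74 and 32.1 FPKM in B-1a and at 33.0 and 21.5 FPKM in B-1b. Of 8 tested genes for hypusine and for diphthamide, the modified histidine of eEF2, 5 were above 0 (median 0.13, or -0.06 without B-1b replicate 2), and Dph6 was separate, at 8.14 and 9.42 FPKM in B-1a and at 4.64 and 5.28 FPKM in B-1b (adjusted p = 0.422 by limma). Of 6 tested mitochondrial translation factors, 4 were above 0 (median 0.13, or -0.15 with at least 10 FPKM). Gfm2 was at 4.24 and 4.03 FPKM in B-1a and at 7.17 and 7.40 FPKM in B-1b (adjusted p = 0.431 by limma).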

How the data were processed

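Poly-A RNA from the sorted cells was sequenced. Per the study's methods the authors used HISAT2 for alignment to GRCm38/mm10, StringTie for assembly and abundance, and Ballgown for testing. For program versions, annotation release and row filter nothing is stated in the sources used. The deposited table is named as raw read counts, but its values are fractional and it states no unit, so they were taken to be FPKM per row, as those tools give. This reading is an inference. Sample columns that could not be mapped numbered 0. The FPKM keep no depth, so no counting error is given, and the number of libraries limits the precision.

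Rows of a name were summed and the sums cover the listed rows only. Of 68 protein-coding names of GENCODE M21 (GRCm38) that meet the rule, 61 are in the table and the other 7 are not analysed here. Genes that reached 1 FPKM in 2 or more libraries were tested with limma 3.58.1 in R 4.3.3 on log2(FPKM + 1), with an intensity trend and Benjamini-Hochberg adjustment over all genes. B-1b replicate 1 was used alone, and its mean with replicate 3 was an alternative. No exact permutation test was used, since with 2 libraries a side its smallest p is 0.333. Reads of members with near copies or processed pseudogenes could have been split, and 35 members overlap another annotated gene. Other steps used Python 3.11.15 with pandas 2.3.3 and numpy 2.4.6. Start windows came from RefSeq, and 47 of the 59 tested members matched by symbol.

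The members, lists and tests were chosen with earlier results of these data known. The rule for named genes took members past the FDR, members with separate libraries and an absolute log2 fold change of at least 1, the most abundant member of each factor, and the eIF2, eIF2B, eIF2 kinase, 4E-BP, eIF4A, eIF4E, eIF4G, Eef1a1, Eef2 and Eef2k genes. Other genes were named after their values were seen. Alternatives were a pseudocount of 0.1, no filter, at least 10 FPKM, a linear model per gene, equal upper quartiles, equal totals without immunoglobulin genes, a replicate block, omission of every library once, all 6 columns, the mean of B-1b replicates 1 and 3, and rows kept apart.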

Additional observations from a re-analysis of the deposited data

How the results depend on the processing

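Limma called 15 genes of all tested. This number was 8 without a filter, 6 with rows kept apart, 1241 with all 6 columns, and 0 with a linear model per gene, with the replicate block and with each library left out (lowest and highest 0). At an unadjusted p under 0.05 there were 657 genes with the linear model, 614 with the block and 537 to 1172 with a library left out, where the lone library of a group is assumed to vary like those of the other. The number of members past the FDR stayed at 0 in every alternative but all 6 columns, where it was 5 (Eef1akmt1, Eif3f, Eif3g, Eif3l and Eif4a3, with log2 fold changes of 1.31 for Eef1akmt1, 3.72 for Eif3g and -1.42 for Eif4a3). By construction this setting counts columns derived from the others as libraries. Members higher in B-1b numbered 29 to 37 of 59 with a library left out, 32 with equal upper quartiles and 68 of 110 with rows kept apart. The replicate numbers do not pair the libraries by any label. The difference of replicates 2 and 1 correlated between the groups with r = 0.0012 across all genes and 0.17 across members (genes are not independent replicates). In both groups 27 members (45.8%) were higher and 6 (10.2%) lower in replicate 2 than in replicate 1, beside 25.2% and 22.9% of all genes. With 2 libraries a group the block leaves every fold change as it was and alters only the errors. It had 5 members at an unadjusted p under 0.05 in place of 3, and the adjusted p of Eif3i went from 0.569 to 0.228 by limma.

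The median log2 fold change of members was 0.08 and ranged from -0.0090 to 0.12 with a library left out. The ranges were -0.26 to 0.15 for eEF1, -0.23 to 0.075 for eEF2, -0.27 to 0.12 for eIF1, 0.0024 to 0.074 for eIF2, 0.11 to 0.21 for eIF3, -0.0090 to 0.17 for eIF4, 0.084 to 0.40 for eIF5 and -2.78 to 0.33 for eIF6. With rows kept apart it was 0.14 for eEF1, 0.061 for eIF2, 0.28 for eIF3 and 0.22 for eIF4. It was 0.0032 for eIF2 with equal upper quartiles, and for eIF3 0.12 without a filter and 0.096 with all 6 columns. The cause of these shifts was not tested.

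Of 31 named members, 15 kept their direction in all alternatives run for them, and of the other 28 tested members, 18 changed direction when a library was left out. Eif2s2 turned to 0.051 and Eif2s3x to -0.0071 with all 6 columns, and Eif2s3x to -0.024 with equal upper quartiles. Other turns came from leaving out a library. Of the named members that kept their direction, Eif2b2 ranged from -0.21 to -0.022, Eif2b4 from 0.053 to 0.14, Eif2b5 from 0.14 to 0.31, Eif2s3y from 0.0065 to 0.38, Eif4e from 0.18 to 0.42, Eif5a from 0.11 to 0.43, Eif1 from -0.38 to -0.077 and Eef2k from -0.23 to -0.015 in this way. Without B-1a replicate 1, Eif2b3 turned to 0.21, Eif4a1 to -0.22, Eif4e2 to 0.011, Eif4ebp1 to -0.00081 and Eif4g2 to -0.87. Without B-1a replicate 2, Eef2 turned to 0.026, Eif2s2 to 0.22, Eif3e to 0.14 and Eif4e3 to -0.036. Without B-1b replicate 1, Eef1a1 turned to 0.0023, Eif2ak1 to -0.038, Eif2b3 to 0.24, Eif3e to 0.20, Eif4e3 to -0.026 and Eif6 to 0.33. Without B-1b replicate 2, Eef2 turned to 0.075, Eif2ak3 to 0.0024, Eif2s1 to -0.098, Eif2s2 to 0.25, Eif2s3x to -0.048, Eif4a2 to -0.039, Eif4ebp1 to -0.0090 and Eif4g2 to -0.83. The values with a library left out spanned -0.48 to 0.0023 for Eef1a1, -0.23 to 0.075 for Eef2, -0.038 to 0.34 for Eif2ak1, -0.41 to 0.0024 for Eif2ak3, -0.29 to 0.24 for Eif2b3, -0.098 to 0.33 for Eif2s1, -0.33 to 0.25 for Eif2s2, -0.048 to 0.074 for Eif2s3x, -0.59 to 0.20 for Eif3e, -0.22 to 2.89 for Eif4a1, -0.039 to 0.34 for Eif4a2, -0.14 to 0.011 for Eif4e2, -0.036 to 0.20 for Eif4e3, -0.0090 to 0.18 for Eif4ebp1, -0.87 to 3.23 for Eif4g2 and -2.78 to 0.33 for Eif6.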
